A study of Rattus norvegicus with 6 samples.

Results

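The Ddx and Dhx genes encode RNA helicases, and 50 of the 21026 gene symbols in the count table belonged to this set. Members were all symbols made of Ddx or Dhx and a number, leaving out Ddx3y, Ddx58, Dhx58 and Ddx60. They were followed in polyadenylated RNA of mesenchymal stem cells from rat (Rattus norvegicus) bone marrow, a stromal population able to give rise to osteoblasts, adipocytes and chondrocytes. The young and the aged group had 3 libraries each, and the series title places the study in bone healing of the elderly. Both groups are known only as young or aged cells: no strain, genotype, sex, age in months, passage or treatment is stated. Sample titles call the libraries biological replicates, but whether a library stands for 1 animal is not stated. The tests therefore speak of the spread among libraries, part of which may be technical.

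RNA helicases use the energy of ATP to open short RNA duplexes or to strip proteins from RNA. Ddx proteins carry the DEAD-box motif, from which the name comes, and mostly open duplexes locally. Most Dhx proteins carry the related DEAH motif and move along the RNA. Members serve nearly every step in the life of an RNA, from transcription and splicing through nuclear export and ribosome assembly to translation and decay, and several are needed for cell growth.

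Library totals ran from 34638874 to 42479626 counts. The transcriptomes differed in most genes: of 14273 genes with enough counts to test, 86.4% were called by edgeR's quasi-likelihood test at a Benjamini-Hochberg adjusted p under 0.05. Those higher in aged cells made up 44.7% of the genes tested and those lower 41.8%. Levels are given in CPM, read counts divided by the library total after scaling with edgeR's TMM factors, and changes are aged over young. Scaling by library size alone shifted the log2 changes of all tested genes upward, with a median shift of 0.34. Young replicate 2 stood further from its group than any other library, with a chi-square per degree of freedom of 11.2 and 9.19 against young replicates 1 and 3, which gave 3.64 between them, and pairs of aged libraries gave 3.13 to 3.61. The label was checked on 10 stromal markers, whose summed level ran from 39186 to 39800 CPM in young and from 23048 to 23280 CPM in aged libraries, and of which only Vcam1 stayed under 1 CPM in all 6. Most of that sum came from Col1a1 and Col1a2, with means of 19586 and 11648 CPM in young and 10932 and 6367 CPM in aged cells. Stromal markers also went different ways. Thy1 fell 2.61-fold, Pdgfrb 1.98-fold, Cd44 1.21-fold and Pdgfra 1.16-fold, and Col1a1 and Col1a2 were called lower too. Nt5e rose 4.48-fold and Itgb1 1.63-fold, and Eng and Vcam1 were not called. Of 9 blood and endothelial markers, 6 were under 1 CPM in every library, among them Ptprc, which encodes the leukocyte antigen CD45, and Pecam1 of endothelium. The summed level of these 9 ran from 83.8 to 84.2 CPM in young and from 43.2 to 44.2 CPM in aged libraries, and it joined changes in opposite directions. Myeloid Cd14 made up most of it in young cells and fell from 80.7 ± 0.772 to 21.0 ± 0.600 CPM, and the macrophage marker Cd68 fell from 2.66 ± 0.763 to 0.784 ± 0.263 CPM (SD, n = 3 each). Csf1r, the receptor of macrophage colony-stimulating factor, rose from 0.321 ± 0.182 to 21.8 ± 0.552 CPM (SD, n = 3 each), and the part of other cell types in the results was not tested.

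RNA helicase genes were mostly higher in aged cells. Of the 48 members that passed the low-count filter, 30 rose, 12 fell and 6 were not called, that is 62.5% higher and 25% lower where all tested genes gave 44.7% and 41.8%. The median log2 change of the 48 was 0.41, beside 0.05 over all tested genes. At least 2-fold rises were seen for 17 members (29.4% of all tested genes) and at least 2-fold falls for 4 (21% of all tested genes). A group of 6 members stood above the rest with rises of 6.91-fold to 11.5-fold, and the next was Dhx40 at 3.77-fold. Rises of at least 6-fold, a limit set after the values were seen, made up 11.7% of all tested genes. In bulk RNA a change in the number of cells of a type and a change in RNA per cell cannot be told apart.

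**Figure D1:**
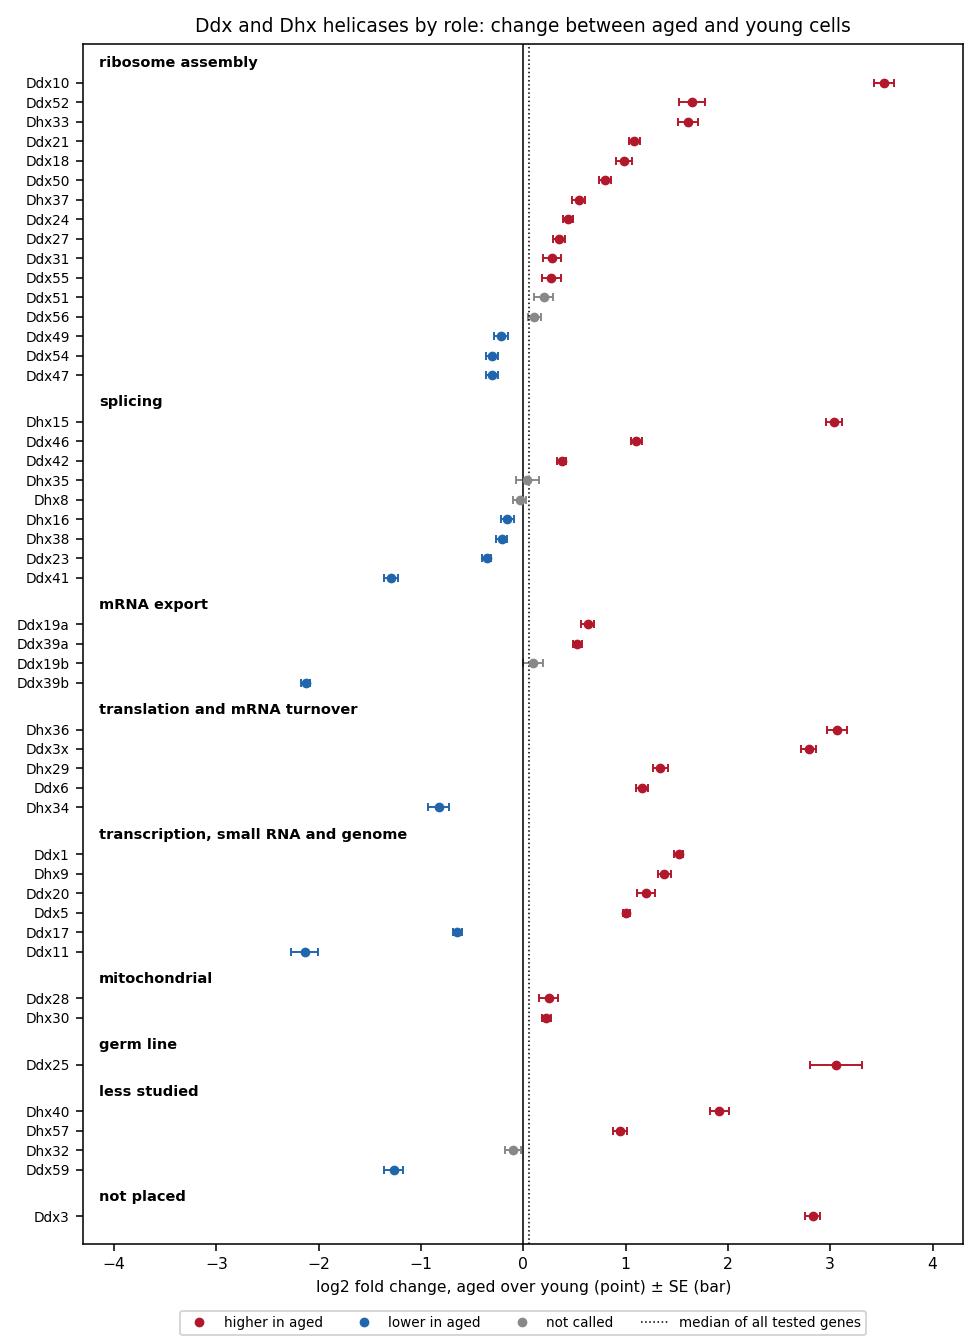
Log2 fold change of each tested helicase gene, aged over young (x axis, log2 units), grouped by role; points are edgeR estimates, bars are ± 1 SE, and colour gives the call. Changes ran from -2.14 for Ddx11 to 3.53 for Ddx10, and the dotted line marks the median of all tested genes at 0.05.

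The 35 Ddx and 15 Dhx genes were alike in their split. Among 33 tested Ddx genes 21 were called higher and 9 lower, and their median log2 change was 0.37. The 15 Dhx genes gave 9 and 3, and a median of 0.54. All falls of at least 2-fold were in the Ddx genes Ddx11, Ddx39b, Ddx41 and Ddx59, and the difference between the families was not tested. The groups did not overlap for 42 of 48 members, as for 87.5% of all tested genes. Every aged library lay above every young one for 31 members (45.2% of all tested genes) and below for 11 (42.4%). Scaling by library size alone raised the count of rising members to 38 and lowered that of falling members to 6, while of all tested genes 54% were then higher and 32.6% lower. Without young replicate 2 the counts stayed at 30 and 12. Among the 30 rising members, 18 had their highest young value in that library, and of all rising genes 50.7% did.

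**Figure D2:**
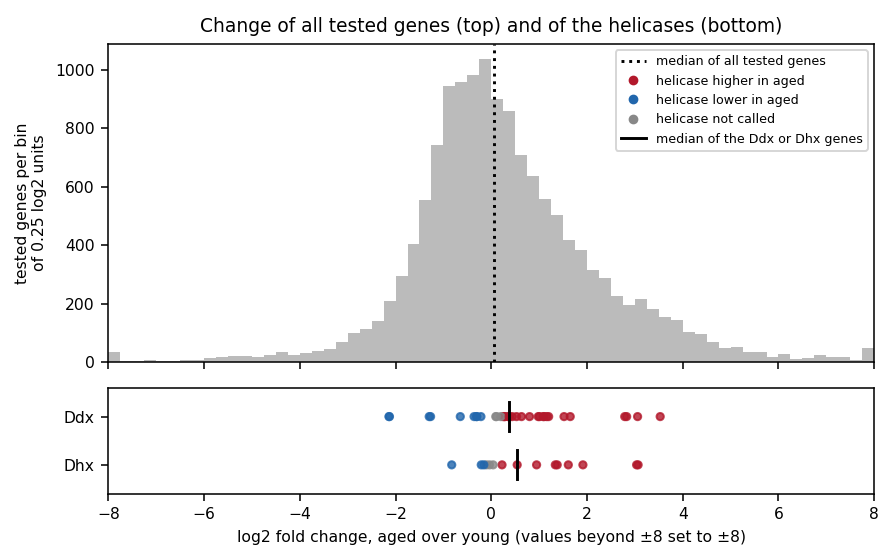
Histogram of the log2 fold change of all 14273 tested genes (top, genes per bin) and the values of the Ddx and Dhx genes on the same axis (bottom, 1 point per gene, coloured by call, with a black bar at the median of each family). The helicases lie inside the broad range of all genes, with medians of 0.37 for Ddx and 0.54 for Dhx.

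All helicase transcripts together took 0.228% ± 0.00281 of the counts in young and 0.461% ± 0.00574 in aged libraries (SD, n = 3 each). These shares are of library totals before TMM scaling. After that scaling the sum over the 50 members was 2547, 2589 and 2544 CPM in young replicates 1 to 3 and 4151, 4130 and 4038 CPM in aged ones. The scaled sums differed by a smaller factor than the shares. Ddx5 and Ddx3x held much of the difference. Without those genes the sum was 2029 ± 15.0 CPM in young and 2669 ± 41.9 CPM in aged cells.

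The sequence before the start of transcription is shown for the 4 helicase genes with the largest rises (Ddx10, Dhx36, Dhx15 and Ddx3x) among those with a promoter entry and over 300 counts in the young libraries together and for a pair of related genes that moved apart (Ddx39a and Ddx39b). Sequences are RefSeq's, assembly GRCr8, 5′ to 3′ on the strand of the gene, and end where the annotated gene begins. Capitals mark matches, on either strand, to any of 7 promoter motifs. These were the E-box, CACGTG, bound by Myc and its relatives. The CCAAT box was searched by those letters and is bound by NF-Y. GGGCGG stood for the box bound by Sp1 and similar factors. CCGGAAG was used for ETS family factors. For NRF1, a regulator of mitochondrial genes, only the inner part of its site, TGCGCA, was searched. TATAAA stood for the TATA box of the basal machinery. A variant of it, TATATAA, was added after the sequences were seen and can overlap it. The sequences of Dhx15 and Dhx36 are 238 and 249 bases long and the others 250.
Ddx3x, chrX:12165984-12166233, minus strand: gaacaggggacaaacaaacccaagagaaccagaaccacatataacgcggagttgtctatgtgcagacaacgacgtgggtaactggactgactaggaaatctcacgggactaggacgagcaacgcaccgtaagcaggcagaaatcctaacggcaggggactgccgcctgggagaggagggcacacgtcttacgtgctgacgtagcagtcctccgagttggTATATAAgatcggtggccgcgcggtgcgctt
Dhx15, chr14:62999648-62999885, plus strand: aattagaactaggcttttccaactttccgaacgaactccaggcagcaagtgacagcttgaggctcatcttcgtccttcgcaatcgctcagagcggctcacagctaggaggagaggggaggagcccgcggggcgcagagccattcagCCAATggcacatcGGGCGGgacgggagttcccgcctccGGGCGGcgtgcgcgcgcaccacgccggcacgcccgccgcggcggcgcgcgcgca
Ddx10, chr8:62539586-62539835, minus strand: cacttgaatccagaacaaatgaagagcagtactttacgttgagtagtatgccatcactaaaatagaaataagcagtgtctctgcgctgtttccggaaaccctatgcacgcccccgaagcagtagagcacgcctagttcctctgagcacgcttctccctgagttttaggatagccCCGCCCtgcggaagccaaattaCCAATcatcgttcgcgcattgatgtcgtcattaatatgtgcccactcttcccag
Dhx36, chr2:149044193-149044441, minus strand: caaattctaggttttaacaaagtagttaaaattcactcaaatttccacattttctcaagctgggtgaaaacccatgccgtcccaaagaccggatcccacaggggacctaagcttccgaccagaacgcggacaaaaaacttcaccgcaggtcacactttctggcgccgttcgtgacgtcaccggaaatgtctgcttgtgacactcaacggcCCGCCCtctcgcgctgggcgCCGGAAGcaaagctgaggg
Ddx39a, chr19:41331414-41331663, minus strand: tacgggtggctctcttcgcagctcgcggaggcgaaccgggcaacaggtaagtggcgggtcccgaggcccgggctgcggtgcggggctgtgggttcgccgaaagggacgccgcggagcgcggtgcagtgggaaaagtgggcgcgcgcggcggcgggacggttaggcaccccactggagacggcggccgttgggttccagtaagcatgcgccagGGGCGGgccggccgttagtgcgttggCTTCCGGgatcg
Ddx39b, chr20:3589652-3589901, minus strand: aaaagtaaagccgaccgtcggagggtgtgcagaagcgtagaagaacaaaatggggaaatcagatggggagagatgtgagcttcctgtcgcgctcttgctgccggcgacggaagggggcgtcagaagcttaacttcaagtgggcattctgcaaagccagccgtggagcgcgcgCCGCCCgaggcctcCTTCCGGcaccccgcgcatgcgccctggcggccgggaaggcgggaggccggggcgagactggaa

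The letters TATAAA stood in the 250 bases before the start of none of the 46 members with an entry. Of all tested genes 6.64% held them, and such values in this paragraph cover the 11183 tested genes with an entry. Most other forms of the TATA box were not searched. The variant TATATAA stood in 1 member, Ddx3x, 31 bases before its start (2.17% of members, against 1.46% of all tested genes). The sequence of Ddx3x held none of the other motifs in these letters. The Sp1 motif was present in the other 5 sequences, and stood in 26 of 46 members (56.5%) and in 57.1% of all tested genes. Dhx15 and Ddx10 also held a CCAAT box, as did 21 members (45.7%, against 35.7% of all tested genes). An ETS site was found in Dhx36, Ddx39a and Ddx39b and in 16 of 46 members (34.8%), against 14.8% of all tested genes. The NRF1 core was found in 12 members, of which 7 were among the 12 that fell and 4 among 26 that rose with an entry. Of all falling genes with an entry 11.6% held it and of all rising genes with an entry 11.7%. The E-box stood in 7 members (15.2%, against 8.13%), none of them falling. GC content of the window had a median of 56.8% in members and 60% in all tested genes. Motifs do not overlap in the sequences shown, they were chosen after the values were seen, and a match is only a match of letters.

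Helicases of translation and mRNA turnover held some of the largest rises. Of 5 tested members, 4 rose and 1 fell, beside 44.7% and 41.8% of all tested genes, and the median log2 change was 1.34. Ddx3x, an X-linked helicase that helps initiation on mRNAs with structured leaders, had 72.1, 89.6 and 65.4 CPM in young replicates 1 to 3 and 536, 523 and 510.5 CPM in aged ones. Every aged library lay far above every young one, and young replicate 2 was the highest of its group. The rise was 6.91-fold (log2 change 2.79, SE 0.08, edgeR adjusted p = 5.5e-16). Dhx36, which unwinds four-stranded guanine structures in RNA and DNA, had 5.24, 5.91 and 4.25 CPM in young and 42.7, 42.8 and 43.9 CPM in aged libraries. It rose 8.38-fold (edgeR adjusted p = 2.9e-15), with aged libraries close together. Dhx29, which helps the small ribosomal subunit scan structured leaders, rose 2.53-fold, and Ddx6, the P-body helicase of mRNA silencing and decapping, rose 2.23-fold from 73.1 ± 7.70 to 163 ± 5.43 CPM (SD, n = 3 each). Dhx34, a factor of nonsense-mediated decay, was the exception and fell 1.77-fold, from 23.5, 18.0 and 20.3 CPM in young to 13.03, 11.0 and 10.8 CPM in aged libraries (edgeR adjusted p = 1.0e-06).

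The row named Ddx3 moved as Ddx3x did. It had 10.7, 11.6 and 10.5 CPM in young and 84.3, 76.4 and 72.4 CPM in aged libraries, a rise of 7.10-fold (edgeR adjusted p = 2.5e-16). In RefSeq this symbol belongs to a gene with the synonym Ddx3yl, and Ddx3 is also a synonym of the Y-linked copy, so which locus the row counts is uncertain. The ratio of Ddx3x to Ddx3 counts was 6.72, 7.72 and 6.25 in young and 6.36, 6.85 and 7.05 in aged libraries, so the groups overlapped. Reads of near-identical copies may be split between these rows, and with Ddx3 counts added to Ddx3x the log2 change of Ddx3x was 2.79. RefSeq also names 19 pseudogenes after 7 members (Ddx3x, Ddx5, Ddx6, Ddx18, Ddx21, Ddx41 and Ddx50), of which Ddx21 has 9.

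Ribosome assembly was the largest group, with 16 tested helicases that work in the nucleolus on the precursors of the small and large subunits. Of these 11 rose, 3 fell and 2 were not called, with a median log2 change of 0.39, where 44.7% of all tested genes rose and 41.8% fell. Scaling by library size alone gave 13 rising and 0 falling, where 54% of all tested genes were higher and 32.6% lower. Ddx10, which acts on the small subunit precursor, had 3.41, 3.85 and 2.80 CPM in young and 39.6, 39.3 and 37.5 CPM in aged libraries. This was the largest rise of any member, 11.5-fold (log2 change 3.53, SE 0.10, edgeR adjusted p = 8.2e-16), and 6.41% of tested genes rose more. Ddx52, another helicase of the small subunit, rose 3.14-fold, and Dhx33, which promotes ribosomal RNA synthesis, rose 3.05-fold. Ddx21, a nucleolar helicase that links transcription of ribosomal RNA to its processing, rose 2.12-fold from 51.2 ± 4.37 to 109 ± 1.32 CPM (SD, n = 3 each). Its neighbour and close relative Ddx50 rose 1.74-fold.

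Rises in the rest of the ribosome assembly group were smaller. Ddx18 rose 1.97-fold, Dhx37, which frees the U3 guide RNA from the small subunit precursor, rose 1.46-fold, and Ddx24, a large subunit factor, rose 1.35-fold from 75.9, 76.4 and 79.5 to 99.4, 109 and 105 CPM. The large subunit factors Ddx27, Ddx31 and Ddx55 rose 1.28-fold, 1.22-fold and 1.21-fold. Ddx47 and Ddx49 of the small subunit and Ddx54 of the large one were lower in aged cells by 1.24-fold, 1.16-fold and 1.24-fold, and under scaling by library size alone their log2 changes turned positive at 0.03, 0.12 and 0.03 and none was called. Ddx47 had 62.3, 56.8 and 63.1 CPM in young and 51.1, 49.1 and 47.2 CPM in aged libraries, without overlap, whereas the groups of Ddx49 overlapped. The large subunit factors Ddx51 and Ddx56 were not called, at log2 changes of 0.20 and 0.11 (edgeR adjusted p = 0.056 and 0.13). Both were called higher under scaling by library size alone (edgeR adjusted p = 4.6e-05 and 6.7e-06) and with a minimum count of 50 (edgeR adjusted p = 0.022 and 0.036). Single libraries decided 3 of these calls. Ddx55 was not called without young replicate 3 (edgeR adjusted p = 0.060) or aged replicate 2 (edgeR adjusted p = 0.089), nor Ddx49 without aged replicate 1 (edgeR adjusted p = 0.055) or aged replicate 3 (edgeR adjusted p = 0.059), and Ddx51 was called without young replicate 3 (edgeR adjusted p = 0.020).

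Each step of the spliceosome cycle has its own helicase. Of 9 tested helicases of splicing 3 rose, 4 fell and 2 were not called, a split near the 44.7% and 41.8% of all tested genes, and the median log2 change was -0.04. Under scaling by library size alone 7 were higher and 1 lower, where 54% of all tested genes were higher and 32.6% lower. Dhx15, which takes the used spliceosome apart and also works in ribosome assembly, had 22.9, 27.8 and 19.7 CPM in young and 193, 201 and 184 CPM in aged libraries. It rose 8.20-fold (log2 change 3.04, SE 0.08, edgeR adjusted p = 4.8e-16), and the lowest aged library was far above the highest young one. Ddx46, which helps the U2 particle bind the branch point, rose 2.15-fold, and Ddx42, a companion of the same particle, rose 1.30-fold. Ddx41, a helicase of late splicing steps that is also known as a DNA sensor, fell 2.46-fold, from 77.6, 68.1 and 67.4 CPM to 30.2, 29.9 and 26.6 CPM (edgeR adjusted p = 5.2e-12).

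Differences in the other splicing helicases were smaller. Ddx23, which exchanges U1 for U6 at the donor site, had 149, 136 and 152 CPM in young and 113, 114 and 115 CPM in aged libraries and fell 1.28-fold (edgeR adjusted p = 9.2e-07), a call that was lost at a log2 change of -0.02 under scaling by library size alone (edgeR adjusted p = 0.64). Dhx16 and Dhx38, which act before the first and the second chemical step, fell 1.11-fold and 1.16-fold by TMM scaling. Scaled by library size alone, both were instead called higher, at log2 changes of 0.18 and 0.13 (edgeR adjusted p = 0.015 and 0.037). By TMM scaling the call of Dhx16 was lost without young replicate 3 (edgeR adjusted p = 0.083), aged replicate 1 (edgeR adjusted p = 0.11) or aged replicate 3 (edgeR adjusted p = 0.074). It was also lost with a minimum count of 50 (edgeR adjusted p = 0.11). No call was made for Dhx8, which releases the spliced mRNA (39.02 ± 1.75 and 38.1 ± 1.94 CPM, SD, n = 3 each, edgeR adjusted p = 0.59), or for Dhx35 (8.27 ± 0.408 and 8.49 ± 0.943 CPM, edgeR adjusted p = 0.75). Under scaling by library size alone both were called higher, at log2 changes of 0.30 and 0.37 (edgeR adjusted p = 2.5e-04 and 0.0057).

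**Figure D3:**
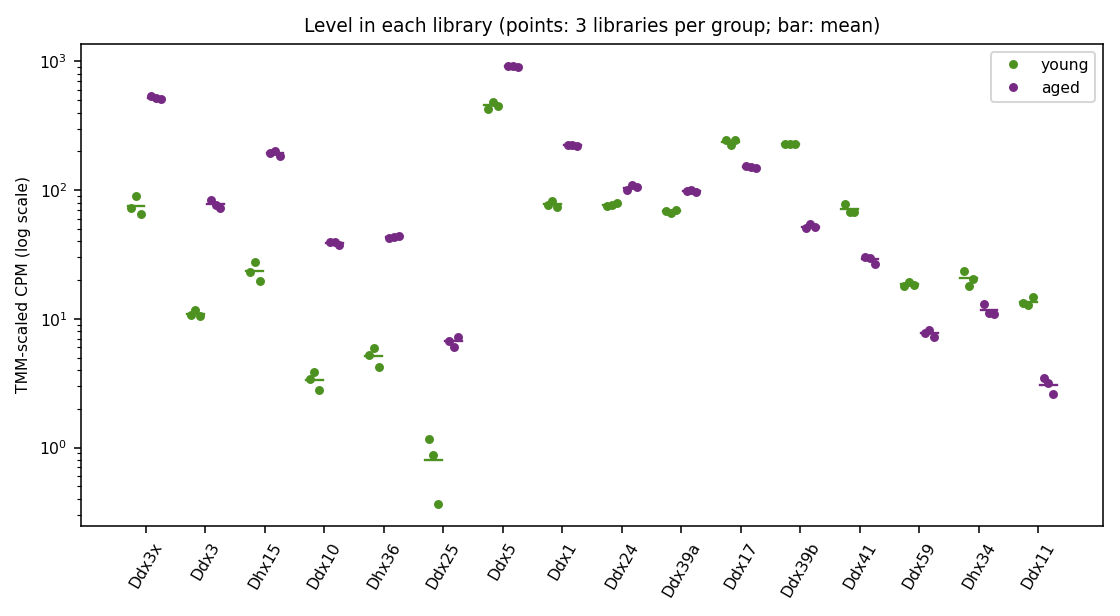
TMM-scaled CPM (log axis) of 16 helicase genes in each of the 6 libraries; green points are young, purple points aged, and bars are group means. The genes are a selection that leaves out members with overlapping groups, such as Ddx19b and Ddx49. The groups do not overlap for any gene shown, as for 87.5% of all tested genes. Ddx3x lies at 65.4 to 89.6 CPM in young and 510.5 to 536 CPM in aged libraries and Ddx39b at 226 to 229 and 50.5 to 54.2 CPM.

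Among helicases of nuclear mRNA export, the relatives Ddx39a and Ddx39b moved in opposite directions. Opposite calls in a pair of genes are common here, since 44.7% of all tested genes were higher and 41.8% lower. Ddx39b (UAP56), which loads export factors on spliced mRNA, had 226, 226 and 229 CPM in young and 50.5, 54.2 and 51.3 CPM in aged libraries. It fell 4.37-fold (log2 change -2.13, SE 0.04, edgeR adjusted p = 8.1e-18), with little spread in either group. Its close relative Ddx39a (URH49) had 68.3, 66.3 and 70.4 CPM in young and 99.2, 99.3 and 97.0 CPM in aged libraries and rose 1.44-fold (edgeR adjusted p = 4.9e-09). Counts of Ddx39a per count of Ddx39b were 0.302, 0.293 and 0.307 in young and 1.96, 1.83 and 1.89 in aged libraries. A ratio of counts is not corrected for transcript length, so only its change between groups is read, and this was 6.30-fold. Ddx19a and Ddx19b are neighbouring genes whose products release mRNA at the outer face of the nuclear pore. Ddx19a had 31.8, 33.8 and 34.4 CPM in young and 55.7, 50.8 and 48.4 CPM in aged libraries and rose 1.55-fold (edgeR adjusted p = 5.5e-08). Ddx19b was not called, at 24.2 ± 4.41 and 25.8 ± 1.59 CPM (SD, n = 3 each, edgeR adjusted p = 0.39), but it was called higher without young replicate 2 (log2 change 0.25, edgeR adjusted p = 0.0028), which at 29.3 CPM lay above its 3 aged libraries, and under scaling by library size alone (log2 change 0.43, edgeR adjusted p = 9.4e-04).

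Opposite changes in a pair of relatives were also seen among helicases of transcription, small RNA processing and the genome. Of these 6 helicases, 4 rose and 2 fell (median log2 change 1.10, beside 44.7% higher and 41.8% lower of all tested genes). Ddx5 (p68), a coactivator that also works in splicing and in microRNA processing, had 429, 483 and 453 CPM in young and 923, 913 and 908 CPM in aged libraries and rose 2.01-fold (edgeR adjusted p = 3.9e-14). Ddx17 (p72), its closest relative and partner, had 245, 222 and 246 CPM in young and 155, 152 and 148 CPM in aged libraries and fell 1.57-fold (edgeR adjusted p = 1.7e-10). The groups were apart for both genes, in opposite directions. Counts of Ddx5 per count of Ddx17 were 1.75, 2.18 and 1.84 in young and 5.96, 5.997 and 6.13 in aged libraries, a change of 3.15-fold. For Ddx21 and Ddx50 the ratio changed by 1.22-fold and for Ddx19a and Ddx19b by 1.44-fold. In each of these 4 pairs all aged ratios lay above all young ones, a direction set by which gene was put on top. Ratios of unrelated gene pairs were not counted, and single genes did not overlap between groups in 87.5% of all tested genes. Each of the 4 pairs gave p = 0.1 in an exact two-sided permutation test over libraries (adjusted p = 0.1 over the 4). This is the smallest p that 3 against 3 can give. The ratios of the 4 pairs do not depend on how libraries are scaled.

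**Figure D4:**
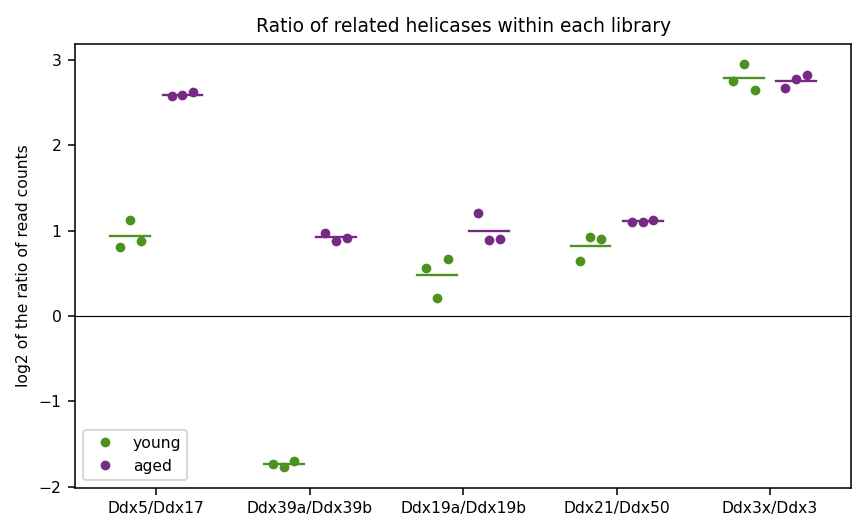
Log2 of the ratio of read counts of 5 pairs of related helicase genes within each library (y axis, log2 units; green young, purple aged, bars are means). The Ddx39a to Ddx39b ratio lies between 0.293 and 0.307 in young and between 1.83 and 1.96 in aged libraries, while the Ddx3x to Ddx3 ratios overlap.

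Ddx1, a helicase of the complex that ligates spliced transfer RNA, had 76.6, 82.9 and 73.7 CPM in young and 226, 223 and 221 CPM in aged libraries and rose 2.87-fold (edgeR adjusted p = 1.6e-15). Dhx9 (RNA helicase A), which resolves RNA-DNA hybrids and inverted repeats, rose 2.60-fold from 47.2 ± 5.09 to 123 ± 5.44 CPM, and Ddx20 (Gemin3), part of the SMN complex that builds splicing particles, rose 2.30-fold from 12.6 ± 1.62 to 29.0 ± 1.71 CPM (SD, n = 3 each). Ddx11 is a DNA helicase, despite its name, that supports sister chromatid cohesion in dividing cells. With 13.2, 12.8 and 14.7 CPM in young and 3.44, 3.19 and 2.59 CPM in aged libraries it fell 4.401-fold (log2 change -2.14, SE 0.13, edgeR adjusted p = 3.6e-11), the largest fall of any member, though it exceeded that of Ddx39b by less than its SE.

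The helicases that work inside mitochondria, 2 members, both rose by small amounts, where 44.7% of all tested genes were higher. Dhx30, needed for assembly of the mitochondrial ribosome, had 73.1, 68.7 and 71.6 CPM in young and 83.3, 81.2 and 84.8 CPM in aged libraries and rose 1.17-fold (edgeR adjusted p = 2.4e-04). Ddx28, a factor of the large mitochondrial subunit, had 12.2, 10.2 and 10.6 CPM in young and 12.8, 12.8 and 13.5 CPM in aged libraries and rose 1.19-fold (edgeR adjusted p = 0.024). The call of Ddx28 was lost without young replicate 2 (edgeR adjusted p = 0.080), young replicate 3 (edgeR adjusted p = 0.085) or aged replicate 3 (edgeR adjusted p = 0.081).

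Germ line helicases were at or near 0 with 1 exception. Ddx25, known from developing sperm, had 42, 33 and 13 counts in young and 280, 265 and 282 counts in aged libraries. This was 0.799 ± 0.405 against 6.69 ± 0.581 CPM (SD, n = 3 each), 8.32-fold higher in aged cells (log2 change 3.06, SE 0.25, edgeR adjusted p = 3.1e-09), and its error was the largest of any member. Ddx43 had 0 counts in every young library and 6, 17 and 5 in aged ones, and did not pass the filter for testing. Its mean aged CPM was 2.69-fold the mean young floor of 3 counts per library, and the 17 counts of aged replicate 2 raised that mean. Ddx4 (Vasa), the classic germ cell marker, had 4 counts in all young and 2 in all aged libraries and was not tested either. A count of 0 allows up to 3 counts, or 0.0688 to 0.0840 CPM depending on the library, for counting error only.

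Less studied members went both ways. Dhx40 rose 3.77-fold from 14.05, 16.6 and 11.5 to 53.7, 53.9 and 51.6 CPM (edgeR adjusted p = 1.8e-12), and Dhx57 rose 1.93-fold from 22.3, 25.4 and 23.8 to 48.0, 47.0 and 42.7 CPM (edgeR adjusted p = 5.9e-10). Ddx59, a gene tied to ciliary signalling in inherited disease, fell 2.41-fold from 18.0, 19.4 and 18.4 to 7.82, 8.14 and 7.20 CPM (edgeR adjusted p = 4.4e-10). Aged libraries did not overlap young ones for these genes, as for 87.5% of all tested genes. Dhx32 was not called (log2 change -0.10, edgeR adjusted p = 0.23). Scaled by library size alone, it was called higher at a log2 change of 0.24 (edgeR adjusted p = 0.0091).

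Genes that work with these helicases were counted in the same fit, to be read beside the 44.7% higher and 41.8% lower of all tested genes. Under scaling by library size alone these shares of all genes were 54% and 32.6%. Of 25 nucleolar partners of ribosome assembly, 19 rose and 5 fell (21 and 2 under that scaling), and the median log2 change was 0.73. Utp20, a large scaffold of the small subunit precursor, rose 8.21-fold, and Fbl (fibrillarin), which methylates ribosomal RNA, fell 1.75-fold. Of 20 spliceosome partners 11 rose and 5 fell (15 and 3 under that scaling), with a median of 0.39. Cwc22, which places the exon junction complex, rose 11.5-fold, and Prpf19, a ubiquitin ligase of the spliceosome, fell 2.12-fold.

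Of 15 partners in mRNA export, 4 were higher and 9 lower, beside 44.7% and 41.8% of all tested genes, and the median log2 change was -0.23. This split turned under scaling by library size alone, with 7 higher, 5 lower and a median of 0.11, beside 54% and 32.6% of all tested genes. Thoc2, the scaffold of the complex that Ddx39b joins, rose 28.7-fold, from 3.32 ± 0.809 to 95.8 ± 0.817 CPM (SD, n = 3 each). Chtop, an export adaptor of the same pathway, fell 2.16-fold. Of 12 decay and P-body partners of Ddx6, 8 rose and 4 fell (median 0.30, and 8 and 2 under that scaling), with the decapping enzyme gene Dcp2 8.97-fold higher and Lsm14b 2.28-fold lower. Of 9 genes of the microprocessor and SMN complexes, 5 rose and 3 fell (median 0.23), with Gemin5 1.84-fold higher and Gemin7 2.74-fold lower. Of 16 RNA helicases with other names, 11 rose and 4 fell (median 0.94). Ythdc2, a reader of methylated adenosine, rose 12.8-fold, and Mov10, a cofactor of RNA silencing, fell 11.1-fold.

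**Figure D5:**
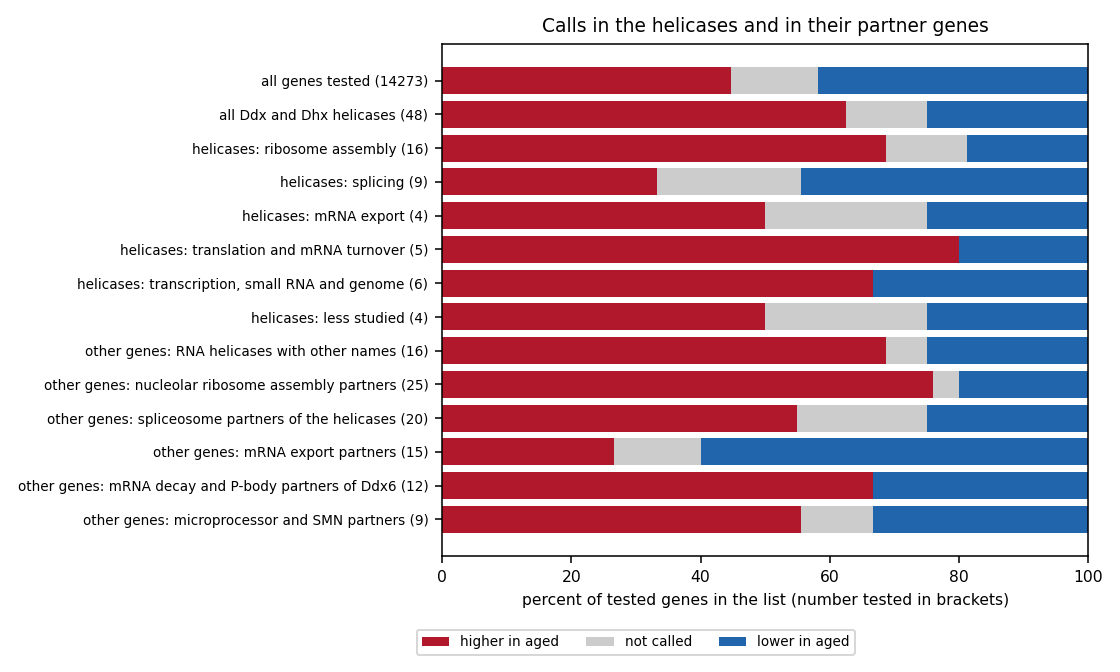
Share of tested genes called higher (red), not called (grey) and lower (blue) in aged cells for all tested genes, the Ddx and Dhx helicases by role and other genes of the same machineries (x axis, percent; number tested in brackets; roles with at least 4 tested genes). All genes give 44.7% higher and 41.8% lower, the helicases 62.5% and 25%, and the mRNA export partners 26.7% and 60% (7 higher and 5 lower of 15 under scaling by library size alone).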

How the data were processed

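RNA was measured by sequencing in 3 young and 3 aged libraries. The authors deposited raw read counts per gene symbol with no normalization, and fastp, HISAT2 and HTSeq are named per the submitters' processing notes. The sources used here give no genome build, annotation, strand setting or version, so reads of overlapping or antisense genes cannot be told apart. Genes were kept by filterByExpr (minimum count 10), scaled by TMM and tested aged against young with edgeR 4.0.16 (glmQLFit, glmQLFTest, group only) in R 4.3.3. P-values were adjusted over 14273 genes (Benjamini-Hochberg, threshold 0.05). The SE of a log2 change was taken as its size over the root of F. Members, role lists, partner lists and tests were chosen with earlier results of these data known. Named by rule were the highest mean, largest rise and largest fall of each role list, the 3 largest rises and falls of all members, and the largest rise and fall of each partner list; other members are examples chosen after their values were seen. On simulated aged against young counts (14273 genes, 50 changed per fold) 58% were recovered at 1.25-fold, 82% at 1.5-fold, 98% at 2-fold and 100% at 4-fold, and 1.17% of calls were false. In the measured counts 86.4% of tested genes were called, a far larger share than was changed in that run. Whether its recovery and false call rates hold for the measured counts was not tested. Alternatives were DESeq2 1.42.0, limma-voom (limma 3.58.1), other scalings and filters, a replicate block and leaving out each library. All 50 members matched RefSeq symbols (GRCr8), and 46 had a promoter entry, the first per symbol being used. Protein sequences were not used here.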

Additional observations from a re-analysis of the deposited data

How the results depend on the processing

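Over all settings 29 to 38 members rose and 6 to 12 fell. Under scaling by library size alone 38 members rose, 6 fell and the median log2 change of members was 0.74 instead of 0.41, while 62.3% of all called genes were higher instead of 51.7%. It reversed the sign of Dhx32 (0.24), Ddx49 (0.12), Ddx54 (0.032), Ddx47 (0.031), Dhx8 (0.30), Dhx16 (0.18) and Dhx38 (0.13). It also left 0 falling ribosome assembly helicases, 7 rising and 1 falling splicing helicases, 2 falling nucleolar, 3 falling spliceosome and 2 falling decay partners, and 7 rising and 5 falling mRNA export partners; the counts of the other lists, and of these under the other settings, stayed within 1.5 times. A minimum count of 50 moved the median to 0.45, and Dhx8 to 0.0088. Leaving out each library in turn gave 29 to 30 rising and 10 to 12 falling members and a median of 0.38 to 0.41. Signs turned then for genes that were not called: Ddx19b ran from -0.00315 without young replicate 1 to 0.251 without young replicate 2, Dhx35 from -0.055 without aged replicate 2 (-0.022 without young replicate 1) to 0.1001 without aged replicate 3, and Dhx8 from -0.074 without aged replicate 3 to 9.9e-04 without aged replicate 1. With the replicate block 30 members rose and 11 fell, and Dhx16 was no longer called (edgeR adjusted p = 0.057). The numbers were not taken as pairs, since deviations of same-numbered libraries correlated at -0.0132, 0.00798 and 0.0259 and not every library correlated best with its own number. Ddx51 was called by limma-voom (adjusted p = 0.040). With a minimum count of 50, Ddx51 and Ddx56 were called (edgeR adjusted p = 0.022 and 0.036) and Dhx16 was not (0.11). Under library size alone Ddx19b, Ddx51, Ddx56 and Dhx35 were called higher and Ddx23 lost its call. Among the genes whose sign turned there, Dhx8, Dhx16, Dhx32 and Dhx38 were called higher. DESeq2 gave 30 and 12. With Ddx3 added to Ddx3x, chosen after seeing the data, the counts were 29 and 12. Apart from the change of scale, the cause of these shifts was not tested. Depth limits Ddx4, Ddx25 and Ddx43.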

Other observations

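Some helicases with other names were picked after their values were seen, among them relatives that went opposite ways. Of all tested genes 44.7% were higher and 41.8% lower, so opposite calls are common in any pair. Eif4a1, the main helicase of translation initiation, fell 2.03-fold from 907 ± 13.4 to 448 ± 5.41 CPM, whereas its relative Eif4a2 rose 2.83-fold from 93.1 ± 6.28 to 264 ± 3.08 CPM (SD, n = 3 each). Mtrex, which feeds the nuclear exosome, rose from 12.8 ± 1.94 to 72.3 ± 1.23 CPM, and Skic2, its cytoplasmic relative, fell from 80.7 ± 3.88 to 46.1 ± 0.788 CPM (SD, n = 3 each). Ascc3, which splits stalled ribosomes, rose by 3.08 on the log2 scale. Upf1, the helicase of nonsense-mediated decay, was not called at 112 ± 4.19 and 111 ± 1.03 CPM (SD, n = 3 each, edgeR adjusted p = 0.70).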
